A study of Mus musculus with 8 samples.

Results

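In all, 8 mouse retina libraries were set against each other by how strongly they carried the transcripts of reactive gliosis, the response of retinal glia to stress or injury. The 4 libraries with high levels of the glial and injury markers Gfap, Lcn2, Edn2 and Ifit3 were PBS replicates 3 and 5 and sIVs replicates 4 and 5, and the 4 with low levels were PBS replicates 1 and 4 and sIVs replicates 1 and 3. All 8 of the 8 libraries of the series enter, and each side holds 2 libraries of each label, so the label was fitted as a covariate. The sides were selected on levels of Gfap, Lcn2, Edn2 and other glial markers measured in these same libraries. They are not treatment groups of the study, and every gene of the high against low comparison counts as used by that choice. Levels, log2 differences and counts between the sides are therefore given as description, with no p-value. Tests are given for the vesicle label with the side held fixed, and for the interaction of label and side. The interaction contrasts the same selected sides, so its p-values are not free of that choice.

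The label sIVs stands for small intracellular vesicles, membrane vesicles prepared from inside cells, and PBS is phosphate-buffered saline, the control. The study concerns vesicle uptake, drug delivery and protection of retinal neurons. Strain, genotype, age, sex, dose, route, time after treatment and any injury were not stated in the labels used, and neither was whether replicates were separate animals, so p-values measure only the spread between these samples. The tissue label was checked on rod genes, and Sag, which encodes rod arrestin, was at 3890 to 6760 CPM (counts scaled to library size) in the 8 libraries.

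Reactive gliosis is carried mainly by Müller glia, which span the retina, and by astrocytes of the nerve fibre layer. Stressed photoreceptors can release endothelin 2 and cytokines of the leukemia inhibitory factor family. These act on glia through the shared receptor gp130 and the transcription factor STAT3, and Gfap is a classical readout. Microglia, the resident phagocytes, and interferon signalling often accompany it. In bulk tissue, more cells of a type and more RNA per cell cannot be told apart.

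Library totals were 14068670 to 16622259 counts on the high side and 13803958 to 14752537 on the low side. One high library stood apart. In sIVs replicate 4 the shortest 20% of genes (up to 2119 bases of listed length) lay 0.56 above the mean of the 8 libraries on the log2 scale, and the longest 20% (7257 bases or more) lay 0.46 below it, both as medians. The difference between these length classes was -1.02 there and -0.12 to 0.25 in the other 7 libraries. On the first principal component, with 58.2% of the variance, it lay at 83.92 and the others at -39.05 to 18.16, so values are repeated without that library where it moves them. In addition, PBS replicate 1 and sIVs replicate 1 had the lowest values of the 8 for most glial and immune lists, while PBS replicate 4 and sIVs replicate 3 lay between them and the high side in most of those lists. Medians without both replicates 1 are given for the immune, glial and rod lists for that reason. Levels below are in CPM after scaling by TMM factors, in the order PBS 3, PBS 5, sIVs 4, sIVs 5 for the high side and PBS 1, PBS 4, sIVs 1, sIVs 3 for the low side. A log2 difference is the fitted high minus low value with its standard error (SE).

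The 4 markers named in the choice came first. Gfap (chr11:102887336-102900912, minus strand, build mm10), the intermediate filament of reactive glia, was at 122, 117, 102 and 95.0 CPM on the high side and at 33.7, 73.9, 48.7 and 69.8 CPM on the low side, a log2 difference of 0.94 ± 0.24. Lcn2 (chr2:32384633-32388252, minus strand), a secreted iron-siderophore carrier of the acute phase, was at 91.8, 61.2, 209 and 108 CPM against 2.11, 34.8, 10.6 and 52.3 CPM, a log2 difference of 2.19 ± 0.72. Both genes had no overlap between the sides, with the smallest gaps between 95.0 and 73.9 CPM for Gfap and between 61.2 and 52.3 CPM for Lcn2. Ifit3 (chr19:34583531-34588731, plus strand), an interferon-induced antiviral protein, was at 44.3, 32.4, 57.9 and 33.2 CPM against 1.06, 27.1, 2.86 and 9.39 CPM (2.14 ± 0.77). Edn2 (chr4:120161206-120167360, plus strand), the endothelin of stressed photoreceptors, was at 50.3, 39.6, 73.2 and 44.8 CPM against 3.09, 41.1, 24.4 and 41.5 CPM (0.93 ± 0.57). Edn2 overlapped, since PBS replicate 5 lay below PBS replicate 4 and sIVs replicate 3. The median log2 difference of the 4 was 1.54, and 2.43 without PBS replicate 4. Without both replicates 1 the log2 differences were 0.59 for Gfap, 1.37 for Lcn2, 1.28 for Ifit3 and 0.32 for Edn2.

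**Figure D1:**
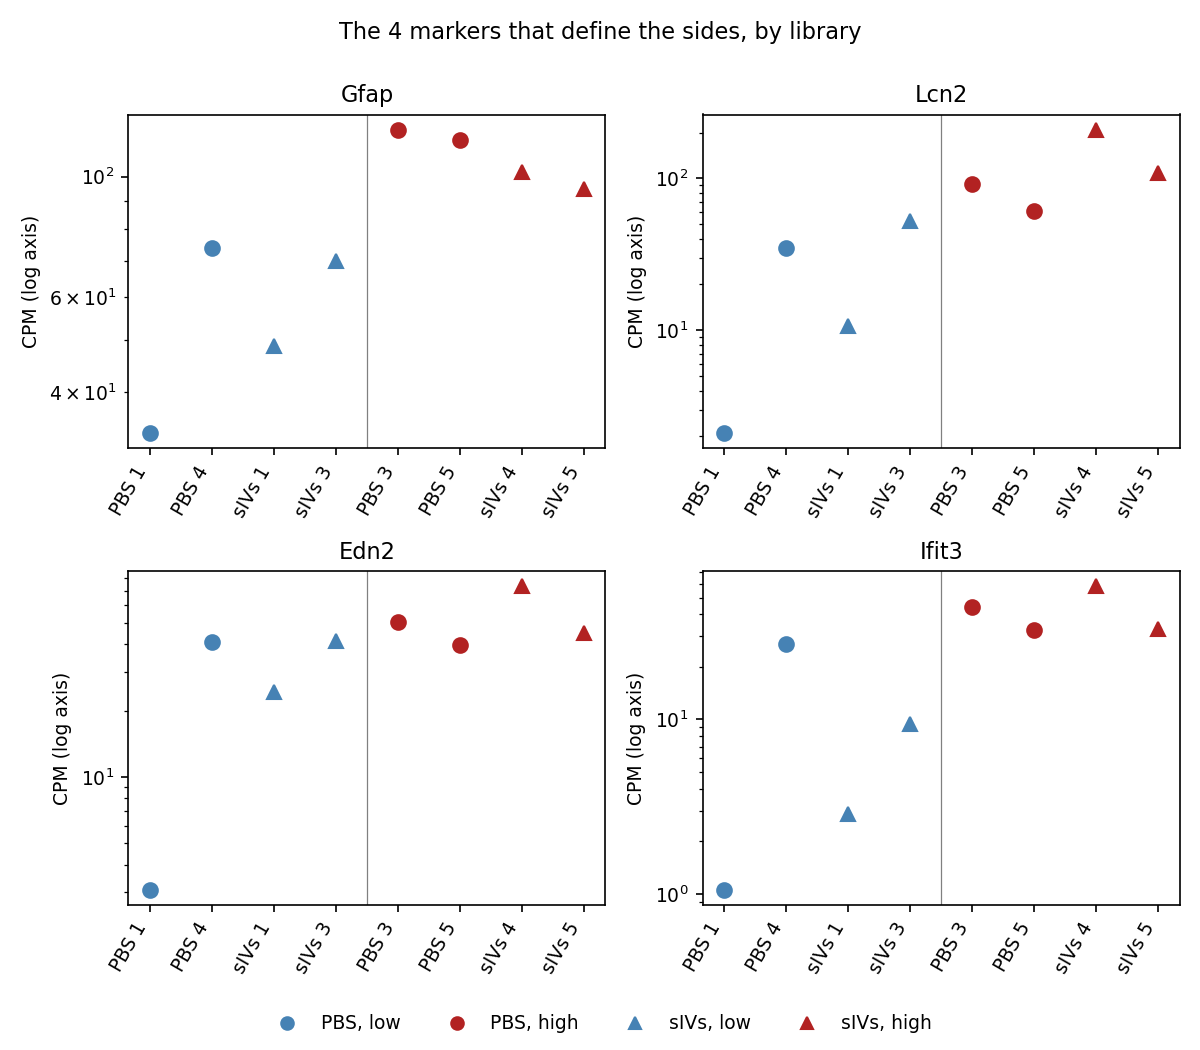
Level of Gfap, Lcn2, Edn2 and Ifit3 in each library in CPM on a log axis, with low libraries left of the line and high libraries right of it, circles for PBS and triangles for sIVs. PBS 1 is lowest and sIVs 1 next lowest in each panel, while PBS 4 (41.1 CPM) and sIVs 3 (41.5 CPM) reach the high range for Edn2.

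Of 17938 genes tested, 1250 (6.97%) were higher in all 4 high than in all 4 low libraries, and 1180 (6.58%) were lower in all 4. These shares are the background for every list count below, and a list share near them is no result about the list. They depend on each library: leaving out PBS replicate 3 or PBS replicate 4 gave 2093 or 2051 higher and 1987 or 2021 lower genes, since fewer libraries have to be separated. At a difference of at least 2-fold, 317 of the higher and 120 of the lower genes remained. The higher genes had a median listed length of 3042.5 bases and the lower genes one of 5675 bases. Without sIVs replicate 4, 1756 genes (9.79%) were higher in the 3 remaining high libraries and 1615 (9%) lower. With offsets that remove each library's trend on gene length, 964 of the 1250 and 841 of the 1180 genes still had no overlap. Immune and glial lists lay higher on the high side and a rod list lay lower. Other neuron lists lay near the median of all tested genes, 0.01. Lists of other kinds lay higher too, with medians of 1.91 for pigment epithelium, 0.90 for proliferation and 0.87 for matrix remodelling. The lists share some genes, so their counts are not independent.

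**Figure D2:**
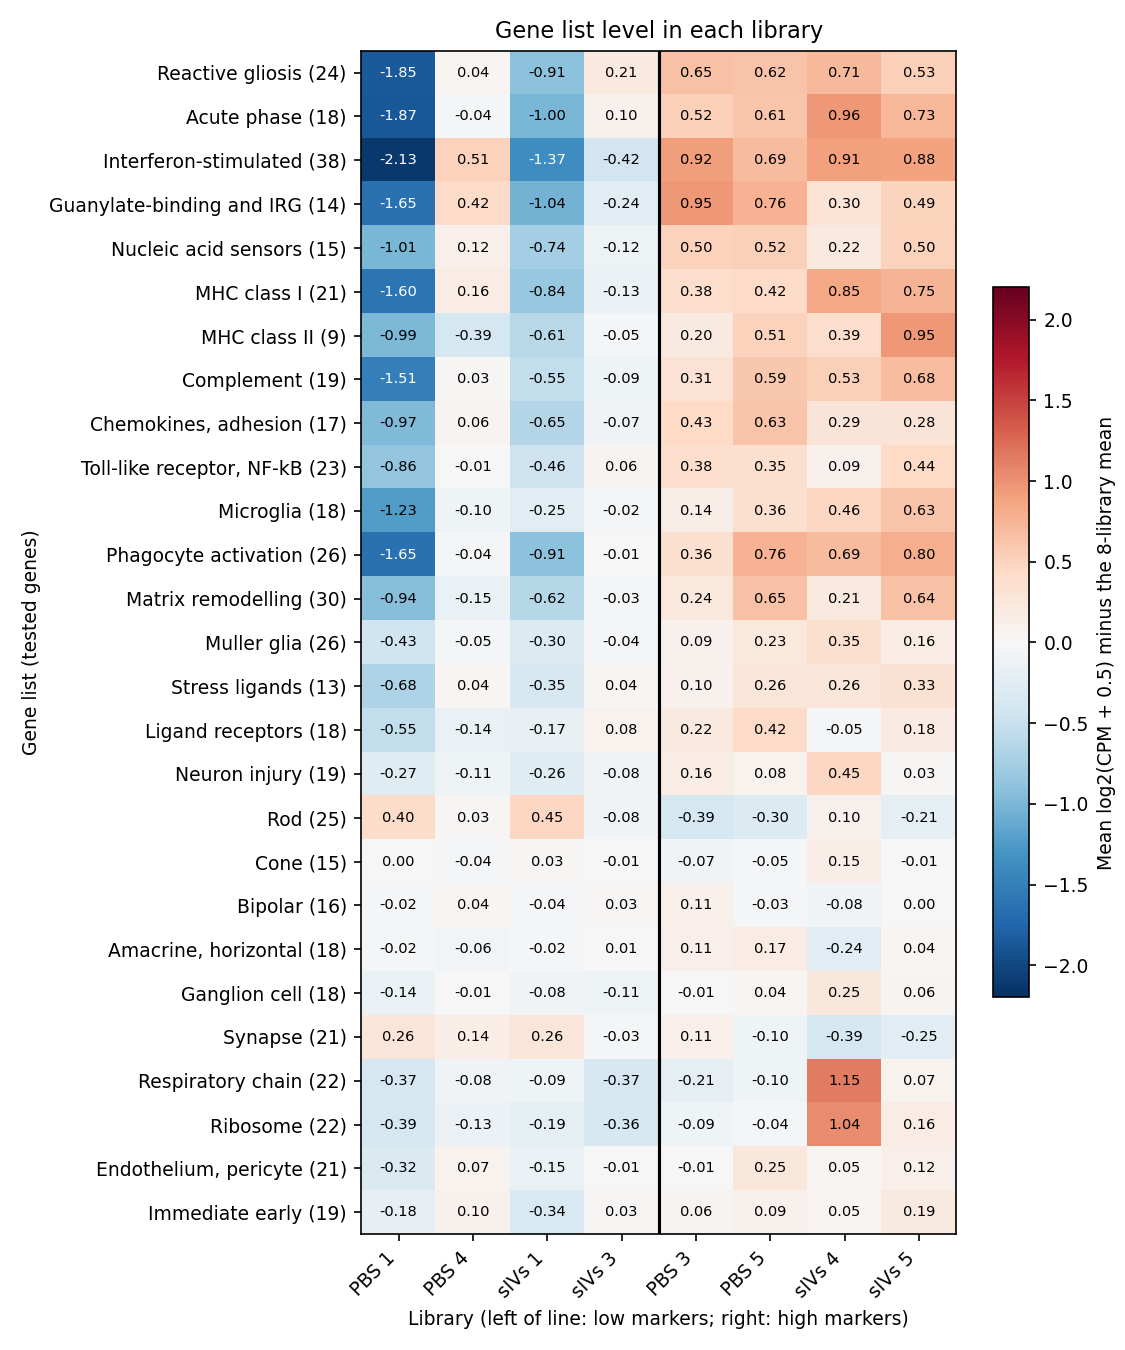
Mean of log2(CPM + 0.5) over the tested genes of each list shown, minus the gene's mean over the 8 libraries, for each library (colour and number, log2 units). Some lists, such as pigment epithelium, are not shown. The interferon row spans -2.13 in PBS 1 to 0.92 in PBS 3, the Müller glia row only -0.43 to 0.35, and in the immunity GTPase row PBS 4 (0.42) lies above sIVs 4 (0.30).

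Among 24 reactive gliosis genes, all tested, 9 were higher in every high library and none lower, with a median log2 difference of 1.06 (1.06 without sIVs replicate 4, where 14 were higher, and 0.50 without both replicates 1). All 24 had a positive difference. This list holds the 4 named markers of the choice, and other members may have entered the choice too. Besides the 4, Cebpd, a transcription factor of the acute phase, was at 117, 101, 220 and 108 CPM against 13.3, 64.9, 38.1 and 84.2 CPM (1.45 ± 0.46). A2m, a broad protease inhibitor, was at 48.5, 40.5, 55.1 and 42.2 CPM against 7.16, 22.8, 13.6 and 34.4 CPM (1.29 ± 0.38). Serpina3n, a serine protease inhibitor and a pan-reactive astrocyte marker, was at 64.2, 60.1, 140 and 74.8 CPM against 8.52, 52.6, 24.6 and 53.3 CPM (1.24 ± 0.49). In all 3 genes the low libraries nearest the high side were PBS replicate 4 and sIVs replicate 3. Of 25 acute phase genes 18 were tested, and 11 were higher in every high library with none lower (median 1.32, and 0.65 without both replicates 1). Lcn2, a marker of the choice, is among the 11, and Lcn2 and Cebpd are in the gliosis list too. Complement C3 was at 27.3, 73.7, 19.9 and 44.1 CPM against 2.11, 16.2, 4.93 and 15.7 CPM (2.04 ± 0.64). Chil1, a chitinase-like protein secreted by reactive glia, was at 59.5, 82.8, 151 and 76.2 CPM against 9.50, 37.6, 15.4 and 35.2 CPM (1.88 ± 0.45). Serping1, the inhibitor of complement C1, was at 49.2, 55.5, 58.7 and 55.2 CPM against 3.09, 36.4, 13.5 and 25.8 CPM (1.47 ± 0.55). Its high libraries lay within a narrow band while its low libraries spread widely.

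Of 19 stress ligands, which can start gliosis, 13 were tested, and none lay higher or lower in every high library (median 0.54, 0.32 without sIVs replicate 4, 0.33 without PBS replicate 1, 0.25 without both replicates 1 and 0.24 within the PBS libraries). Without sIVs replicate 4, 1 ligand was higher, Fgf2. Lif, the cytokine that acts through gp130, was at 3.42, 3.13, 1.64 and 1.71 CPM against 0.452, 1.48, 0.429 and 2.28 CPM (1.03 ± 0.55), so sIVs replicate 3 overlapped the high side. Fgf2, a trophic factor of stressed photoreceptors and Müller glia, was at 162, 131, 78.5 and 116 CPM against 23.1, 106, 64.8 and 112 CPM (0.66 ± 0.44). The library of lowest Fgf2 was PBS replicate 1, and PBS replicate 4 and sIVs replicate 3 lay above sIVs replicate 4 but below the other high libraries. Without sIVs replicate 4 the Fgf2 difference was 0.87 ± 0.42, and without both replicates 1 it was 0.12. Fgf1 (-0.06 ± 0.11) and Bdnf (0.06 ± 0.15) differed little between the sides. Il6, Tnf, Il1b, Il11, Osm and Cntf had 4 to 47 counts in all 8 libraries together and were not tested.

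Of 18 receptors and relays of these ligands, all tested, 3 were higher and 1 lower in every high library (median 0.41, 0.25 without PBS replicate 1, 0.17 without both replicates 1, 0.67 within the PBS and 0.02 within the sIVs libraries). Without sIVs replicate 4, 6 were higher and 1 lower. Tnfrsf1a, the main receptor of tumour necrosis factor, was at 31.9, 38.2, 44.6 and 33.0 CPM against 7.09, 24.5, 16.7 and 25.7 CPM (1.01 ± 0.33). Ednrb, the endothelin receptor of glia, was at 13.3, 20.5, 18.3 and 12.4 CPM against 11.4, 8.55, 9 and 12.2 CPM (0.65 ± 0.21), with a gap of only 12.4 to 12.2 CPM. The receptor of Lif itself, Lifr, went the other way, at 91.8, 94.1, 64.7 and 81.4 CPM against 113, 97.7, 116 and 107 CPM (-0.39 ± 0.13). The Lifr difference was -0.29 without sIVs replicate 4, -0.22 with length offsets, -0.18 within the PBS and -0.61 within the sIVs libraries. The share of lower genes in this list, 5.56%, lay near the 6.58% of all tested genes. Gp130 (Il6st) differed by 0.06 ± 0.22 and overlapped. Stat3 (0.47 ± 0.22) and Socs3, the feedback inhibitor that STAT3 induces (1.08 ± 0.40), overlapped through sIVs replicate 3, which had 17.7 CPM of Socs3 against 17.3 CPM in sIVs replicate 4. Fgfr1, a receptor of fibroblast growth factors, was higher in every high library (0.57 ± 0.16).

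Of 38 interferon-stimulated genes, all tested, 22 were higher in every high library and none lower, and the median log2 difference was 1.55. It was 1.48 without sIVs replicate 4, 2.50 without PBS replicate 4, 0.87 without both replicates 1, 1.24 within the PBS and 1.98 within the sIVs libraries. Ifit3, a marker of the choice, is among the 22. Oasl1, a member of the oligoadenylate synthetase-like family, was at 4.46, 3.85, 4.51 and 3.36 CPM against 0.0754, 1.95, 0.214 and 1.07 CPM (2.28 ± 0.65). Usp18, which removes the ubiquitin-like ISG15 and dampens interferon receptor signalling, was at 20.1, 16.0, 31.3 and 18.4 CPM against 0.528, 13.5, 0.715 and 7.40 CPM (1.96 ± 0.82). Slfn2, a schlafen family member, was at 4.64, 3.01, 7.72 and 5.69 CPM against 0.301, 2.76, 0.429 and 1.42 CPM (2.04 ± 0.62). PBS replicate 4 came close to the lowest high library in Usp18 and Slfn2, whereas PBS replicate 1 and sIVs replicate 1 were under 1 CPM in both. Isg20, an interferon-induced exonuclease, was low everywhere, at 2.61, 1.93, 2.75 and 1.37 CPM against 0.452, 1.21, 0.286 and 0.356 CPM (1.95 ± 0.45).

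The genes that make and relay interferon were more mixed. Ifnb1 and Ifng, the interferons beta and gamma, had 0 counts in all 8 libraries. Of 19 receptors and factors 17 were tested, and 3 were higher in every high library with none lower. The median was 0.71, 0.44 without PBS replicate 1 and 0.35 without both replicates 1. Without sIVs replicate 4, 5 were higher. Usp18 is among the 3 and is in the interferon-stimulated list too. The receptor chains Ifnar1 (-0.10 ± 0.10) and Ifngr1 (-0.01 ± 0.12) differed little. Irf9, the DNA-binding part of the factor ISGF3, was at 83.7, 67.7, 79.2 and 82.1 CPM against 20.9, 62.9, 30.0 and 44.2 CPM (0.98 ± 0.30). Irf8, a factor of microglia and other myeloid cells, was higher in every high library (0.71 ± 0.30).

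Immunity GTPases and nucleic acid sensors are also induced by interferons. Of 16 guanylate-binding proteins and immunity-related GTPases 14 were tested, all 14 had positive differences, and 5 were higher in every high library with none lower (median 1.24, and 0.68 without both replicates 1). Irgm1 was at 32.1, 23.7, 32.0 and 25.5 CPM against 3.54, 18.2, 4.14 and 10.3 CPM (1.67 ± 0.47). Gbp3 was at 34.3, 34.6, 37.9 and 39.3 CPM against 2.04, 31.7, 3.79 and 11.6 CPM (1.66 ± 0.68). In Gbp3 the high libraries were nearly level and PBS replicate 4 lay just under them. Of 16 sensors 15 were tested and 3 were higher in every high library with none lower (median 0.88, 1.14 without sIVs replicate 4, where 6 were higher, 0.58 without both replicates 1 and 0.45 within the sIVs libraries). Zbp1, a sensor of Z-form nucleic acids, was at 5.57, 3.55, 4.84 and 4.59 CPM against 0.151, 2.36, 0.214 and 1.14 CPM (2.27 ± 0.65). Ddx58, which encodes the RNA sensor RIG-I, was at 50.3, 42.0, 35.3 and 33.9 CPM against 5.58, 32.4, 9.15 and 21.1 CPM (1.23 ± 0.46). Near-identical copies within the Oas, Ifit, Slfn, Gbp, Irgm and H2 families may share reads, and how such reads were counted was not stated in the labels used.

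Promoters of 3 higher immune genes are shown as examples of those that hold an element bound by interferon-activated factors. The lists were drawn from known interferon targets, so the shares of promoters with the element restate that in part. The interferon-stimulated response element was searched as GAAANNGAAA on both strands in RefSeq promoters (build GRCm38.p6), 250 bases before to 50 after the start, with 1 promoter taken per gene. The promoters printed were picked after the matches were seen, as examples that hold one, and Oasl1 and Psmb9 were looked at and held none. It occurred in 3.49% of all 27025 promoters and in 2.90% of the 12199 matched to tested genes. Of the interferon-stimulated list 29 of 38 genes matched a promoter and 13 held the motif (44.8%). Of the immunity GTPases 9 of 14 matched and all 9 held it, and of the class I antigen presentation list 17 of 21 matched and 5 held it (29.4%). Among genes higher in every high library 54 of 937 promoters held it (5.76%), and among those lower in every high library 10 of 811 (1.23%). A match is a description of these letters, not a bound site. Capitals mark the element in the next 3 promoters.
Ifit3: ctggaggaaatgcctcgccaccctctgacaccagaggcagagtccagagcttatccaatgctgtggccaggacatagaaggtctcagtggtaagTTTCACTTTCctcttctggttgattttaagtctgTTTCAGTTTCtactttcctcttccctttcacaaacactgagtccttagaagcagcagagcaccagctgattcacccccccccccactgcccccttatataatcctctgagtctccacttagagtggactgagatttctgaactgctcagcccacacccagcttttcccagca
Gbp2: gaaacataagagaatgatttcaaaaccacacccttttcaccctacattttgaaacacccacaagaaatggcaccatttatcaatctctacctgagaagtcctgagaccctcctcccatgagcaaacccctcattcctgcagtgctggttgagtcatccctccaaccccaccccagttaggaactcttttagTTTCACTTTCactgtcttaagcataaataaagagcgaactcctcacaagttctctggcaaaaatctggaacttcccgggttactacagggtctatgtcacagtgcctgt
B2m: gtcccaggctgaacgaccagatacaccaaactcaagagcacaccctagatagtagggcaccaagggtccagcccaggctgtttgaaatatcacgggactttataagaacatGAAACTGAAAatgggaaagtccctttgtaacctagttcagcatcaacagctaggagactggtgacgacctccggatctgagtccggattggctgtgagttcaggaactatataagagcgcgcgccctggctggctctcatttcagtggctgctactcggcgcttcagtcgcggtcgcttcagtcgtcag
These lie at chr19:34583279-34583578, chr3:142620413-142620712 and chr2:122147437-122147736. Ifit3 holds 2 copies and Gbp2 and B2m hold 1 each.

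Acute phase genes were searched in the same way for the C/EBP motif TTGCNNAA on both strands. It occurred in 10.8% of all promoters and in 8.05% of those of tested genes. Of the acute phase list 14 of 18 genes matched a promoter and 6 held it (42.9%), including Lcn2 and C3. The STAT motif TTCNNNGAA, which reads the same on both strands, occurred in 8.47% of all promoters and 6.68% of those of tested genes, and in 5 of 20 matched reactive gliosis promoters (25.0%), including that of Gfap. It occurred in 54 of 937 promoters of all genes higher in every high library (5.76%) and in 58 of 811 of those lower (7.15%). The C/EBP motif occurred in 99 (10.6%) and 58 (7.15%). The acute phase list was drawn up around C/EBP genes, and the gliosis list holds the STAT3-linked genes Gfap and Socs3. The shares in these lists restate that choice in part. Capitals mark TTGCNNAA or its reverse complement in Lcn2 and C3 and TTCNNNGAA in Gfap.
Lcn2: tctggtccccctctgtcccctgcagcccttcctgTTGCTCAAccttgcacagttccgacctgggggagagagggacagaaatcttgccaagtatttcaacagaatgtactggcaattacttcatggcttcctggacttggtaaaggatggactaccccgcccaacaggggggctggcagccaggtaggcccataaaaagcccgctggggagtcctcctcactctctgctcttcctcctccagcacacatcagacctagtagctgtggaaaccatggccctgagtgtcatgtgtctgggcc
C3: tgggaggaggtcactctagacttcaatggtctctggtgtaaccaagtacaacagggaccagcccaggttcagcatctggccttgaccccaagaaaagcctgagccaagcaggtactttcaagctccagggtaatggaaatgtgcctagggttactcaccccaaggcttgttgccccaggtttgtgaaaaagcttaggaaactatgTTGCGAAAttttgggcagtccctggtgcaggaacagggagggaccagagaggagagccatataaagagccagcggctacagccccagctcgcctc
Gfap: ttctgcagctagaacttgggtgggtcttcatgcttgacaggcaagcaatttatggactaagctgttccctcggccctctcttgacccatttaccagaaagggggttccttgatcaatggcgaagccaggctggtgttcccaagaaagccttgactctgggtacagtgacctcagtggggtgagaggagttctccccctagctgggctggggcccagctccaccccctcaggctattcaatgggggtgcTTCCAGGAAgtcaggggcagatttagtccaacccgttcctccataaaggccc
These lie at chr2:32387690-32387989, chr17:57228087-57228386 and chr11:102897151-102897450, all on the minus strand.

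Antigen presentation lay higher too. Of 21 class I genes, all tested and all with a positive difference, 10 were higher in every high library and none lower (median 1.11, and 0.61 without both replicates 1). B2m, the light chain of every class I molecule, was at 83.8, 93.5, 165 and 140 CPM against 9.20, 83.4, 26.7 and 54.1 CPM (1.42 ± 0.56). The gap rested on 83.8 CPM in PBS replicate 3 against 83.4 CPM in PBS replicate 4. Psmb9, an immunoproteasome subunit, was at 6.44, 7.71, 11.6 and 9.12 CPM against 0.377, 4.91, 1.5 and 2.92 CPM (1.81 ± 0.56), and Psmb8, another, had 1.67 ± 0.45. Of 10 class II genes 9 were tested and 5 were higher in every high library with none lower (median 1.13, and 0.92 without both replicates 1). H2-Eb1 was at 1.16, 2.95, 1.37 and 5.14 CPM against 0, 0.337, 0 and 0.569 CPM, and H2-Aa at 1.62, 2.29, 2.88 and 5.21 CPM against 0, 0.471, 0 and 1.07 CPM. Both class II chains were absent from the counts of the 2 libraries numbered 1 and highest in sIVs replicate 5. H2-Ab1 was at 5.22, 4.64, 8.24 and 6.24 CPM against 1.21, 3.10, 2.79 and 3.20 CPM (1.23 ± 0.28).

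Phagocyte genes followed. Of 27 genes of phagocyte activation 26 were tested, all 26 with a positive difference, and 14 were higher in every high library with none lower (median 1.25, and 0.74 without both replicates 1). Lyz2, the lysozyme of myeloid cells, was at 54.4, 89.8, 96.3 and 101 CPM against 0.603, 20.7, 11.1 and 36.3 CPM (2.39 ± 0.71). Spp1, osteopontin, was at 118, 156, 199 and 112 CPM against 6.56, 79.6, 8.5 and 61.2 CPM (1.91 ± 0.74). Cd68, a lysosomal glycoprotein of phagocytes, was at 14.9, 18.2, 18.4 and 19.1 CPM against 0.603, 8.35, 3.57 and 9.46 CPM (1.69 ± 0.57). All 3 were lowest in PBS replicate 1 and next lowest in sIVs replicate 1. Of 18 microglia genes, all tested, 7 were higher in every high library and none lower (median 0.67, and 0.48 without both replicates 1). These 7 included Tyrobp, the adaptor of TREM2, at 6.73, 8.85, 15.8 and 9.19 CPM against 0.301, 4.04, 2.72 and 4.27 CPM (1.83 ± 0.53). Trem2 itself was at 7.36, 11.5, 18.0 and 12.7 CPM against 1.43, 5.18, 4.36 and 5.76 CPM (1.55 ± 0.35). The purinergic receptor P2ry12, a marker of resting microglia, was at 4.52, 5.18, 5.49 and 6.38 CPM against 3.32, 3.90, 7.79 and 5.48 CPM (0.12 ± 0.21), with its highest value in a low library. P2ry12 was picked after its values were seen.

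Complement, chemokine and Toll-like receptor genes completed this group. Of 22 complement genes 19 were tested and 10 were higher in every high library with none lower (median 1.16, and 0.70 without both replicates 1). Among the 10, C3 and Serping1 are also in the acute phase list and Itgam in the microglia list. C1qb, a chain of the C1q recognition protein, was at 26.5, 28.9, 55.3 and 37.6 CPM against 3.01, 17.5, 14.0 and 19.3 CPM (1.45 ± 0.42), and the receptor C3ar1 at 14.1, 18.2, 12.6 and 16.3 CPM against 0.226, 8.41, 2.93 and 8.18 CPM (1.63 ± 0.67). Of 26 chemokine, cytokine and adhesion genes 17 were tested and 7 were higher with none lower (median 1.13, 0.58 without both replicates 1 and 0.76 within the sIVs libraries). Vcam1, an adhesion receptor for leukocytes, was at 42.9, 43.3, 41.8 and 38.3 CPM against 7.69, 27.7, 12.6 and 27.7 CPM (1.13 ± 0.37). Of 24 Toll-like receptor and NF-κB genes 23 were tested, 5 were higher and 1 was lower (median 0.72, 0.43 without PBS replicate 1 and 0.36 without both replicates 1). Without sIVs replicate 4, 11 were higher and 1 lower. The higher ones included Tlr2 (1.63 ± 0.50) and Cd14 (1.10 ± 0.31). The lower one, 4.35% of those tested in the list against 6.58% of all tested genes, was Tnfaip3. It encodes A20, a brake on NF-κB, and was at 219, 225, 220 and 231 CPM against 514, 306, 462 and 317 CPM (-0.84 ± 0.18). Its 4 high libraries were nearly level.

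Markers of blood leukocytes moved with the sides at very low levels. Of 17 such genes 2 were tested, Ccr2 and Plac8, and Ly6g, Elane and Cd3e, which mark neutrophils and T cells, had 0 counts in every library. Other such markers did have counts. S100a8 and S100a9, which neutrophils also express, had 7, 1, 12 and 4 and 2, 3, 11 and 6 counts on the high side. Both had 0 in every low library. The T cell genes Cd4 and Cd8a had 13, 1, 5 and 8 and 6, 1, 2 and 8 counts against 5, 5, 1 and 1 and 3, 1, 1 and 0. The summed level of the 17 was 4.70 to 8.23 CPM on the high and 0.858 to 2.13 CPM on the low side. Ccr2, the receptor of recruited monocytes, was at 1.97, 3.43, 0.850 and 3.98 CPM against 0, 0.471, 0.0715 and 1.28 CPM. Their part in the myeloid, class II and interferon differences was not tested.

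**Figure D3:**
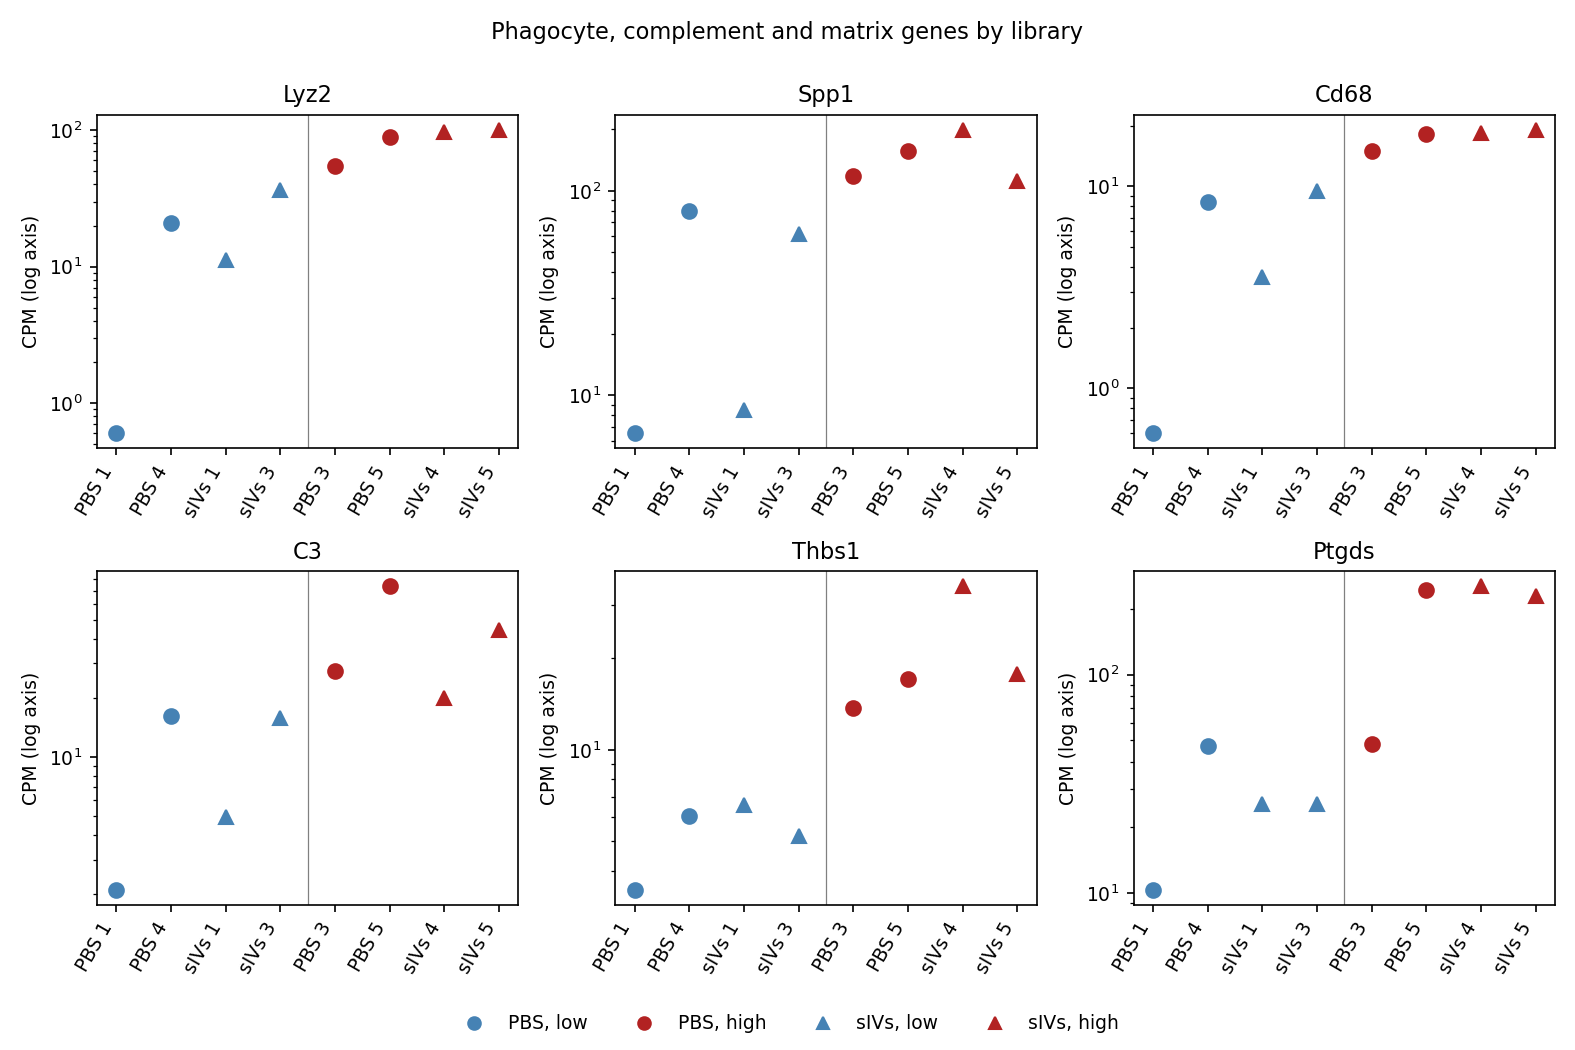
Level of Lyz2, Spp1, Cd68, C3, Thbs1 and Ptgds in each library in CPM on log axes, with symbols for label and colours for side. Every high library lies above every low one in all 6 panels, by a small gap in Ptgds for PBS 3 (48.0 against 47.2 CPM in PBS 4) and by a wide gap in Thbs1.

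Genes of matrix remodelling and scar formation were higher in part. Of 31 genes 30 were tested, 13 were higher in every high library and none lower, with a median of 0.87, 0.54 without both replicates 1 and 0.56 without both replicates 5. Thbs1, thrombospondin 1, was at 13.7, 17.1, 34.5 and 17.7 CPM against 3.47, 6.06, 6.57 and 5.19 CPM (1.92 ± 0.27). Leaving out both replicates 1 gave 1.81. Plau, the urokinase activator of plasmin, was at 10.4, 15.2, 8.83 and 8.09 CPM against 0.754, 5.45, 0.929 and 3.41 CPM (2.00 ± 0.53). S100a6 and Lgals1, small proteins raised in reactive cells, had 1.45 ± 0.54 and 1.48 ± 0.38.

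Markers of tissue next to the retina varied between libraries. The summed level of 14 markers of ciliary body, iris, cornea and lens was 42.8 and 39.6 CPM in PBS and sIVs replicates 5 and 26.7 to 31.3 CPM in the other 6 libraries. Much of this sum came from Opcml, which was nearly level at 16.7 to 21.8 CPM in the 8 libraries. Wfdc1 was at 4.12, 13.7, 8.96 and 11.1 CPM against 3.01, 4.17, 4.00 and 3.41 CPM (1.37 ± 0.35). The 5 markers tested had a median of 0.82, and -0.06 without both replicates 5. The sum of 17 pigment epithelium markers was 1490 CPM in sIVs replicate 4, 781 to 792 CPM in the other high libraries and 654 to 716 CPM on the low side. Most of the sum came from Rlbp1, a retinoid-binding protein gene that Müller glia share, at 831 CPM in sIVs replicate 4, 501 to 523 CPM in the other high libraries and 438 to 495 CPM on the low side. Ttr, a retinol and thyroxine carrier of the pigment epithelium, was at 12.3, 14.1, 150 and 14.7 CPM against 0.754, 3.16, 7.5 and 0.925 CPM (3.59 ± 0.88, and 2.32 without sIVs replicate 4). The melanin enzyme Dct was at 5.22, 16.6, 30.9 and 17.9 CPM against 1.21, 2.36, 3.43 and 1.85 CPM (2.92 ± 0.44). Of 17 pigment epithelium genes 15 were tested and 6 were higher in every high library (median 1.91, 1.51 without sIVs replicate 4). Of 21 endothelial and pericyte genes, all tested, none separated the sides (median 0.25, 0.16 without PBS replicate 1, and summed levels of 909 to 1180 CPM against 782 to 1010 CPM). The part of such tissue in the matrix, class II and acute phase differences was not tested.

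Of 26 genes of resting Müller glia, all tested, 9 were higher in every high library and none lower (median 0.33, and 0.20 without both replicates 1). Vim, the intermediate filament partner of Gfap, was at 392, 400, 464 and 370 CPM against 108, 277, 142 and 247 CPM (1.07 ± 0.28). Crym, a thyroid hormone-binding protein, was at 374, 335, 300 and 277 CPM against 45.2, 187, 71.5 and 174 CPM (1.42 ± 0.42). Sox9, a factor of glial identity, had 0.62 ± 0.16. The glutamine synthetase Glul, the main detoxifier of glutamate in these cells, was at 1880, 2040, 2200 and 2140 CPM against 2320, 2160, 2100 and 2120 CPM (-0.08 ± 0.11), picked after its values were seen. Per length, Glul was at a mean of 608 FPKM on the high and 642 FPKM on the low side, and Gfap at 25.3 and 13.2 FPKM. Of 11 astrocyte genes 9 were tested, with a median of 0.42, and 0.28 without both replicates 1. Of these, 2 were higher in every high library, the marker Gfap and Aldh1l1 (1.06 ± 0.38), a folate enzyme of astrocytes.

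Rod genes lay lower on the high side. Of 25, all tested, 9 were lower in every high library and none higher, and 22 had a negative difference. Without sIVs replicate 4, 16 were lower, beside the 9% of all tested genes given above. The median was -0.46, or -0.55 without sIVs replicate 4, -0.18 without both replicates 1, -0.59 within the PBS and -0.25 within the sIVs libraries. Pde6a, a catalytic subunit of the rod phosphodiesterase, was at 1060, 1230, 560 and 940 CPM against 1970, 1340, 2090 and 1340 CPM (-0.86 ± 0.25). Abca4, the retinoid flippase of outer segments, was at 902, 1080, 755 and 862 CPM against 1900, 1180, 1770 and 1260 CPM (-0.77 ± 0.18). Slc24a1, the rod sodium-calcium exchanger, was at 830, 930, 561 and 819 CPM against 1650, 1130, 1580 and 1060 CPM (-0.80 ± 0.20). In these genes PBS replicate 1 and sIVs replicate 1 were highest, and PBS replicate 4 and sIVs replicate 3 lay between them and the high side. Kcnv2, a modifier of potassium channels, had -0.68 ± 0.18, and Grk1, a photoreceptor kinase, -0.66 ± 0.17. Sag, Guca1a and Gngt1, which encode arrestin, a guanylate cyclase activator and a transducin subunit, differed by 0.06, 0.07 and 0.10, and all 3 were highest in sIVs replicate 4. Without that library they differed by -0.13, -0.30 and -0.23. Sag, Guca1a and Gngt1 were picked after their values were seen.

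**Figure D4:**
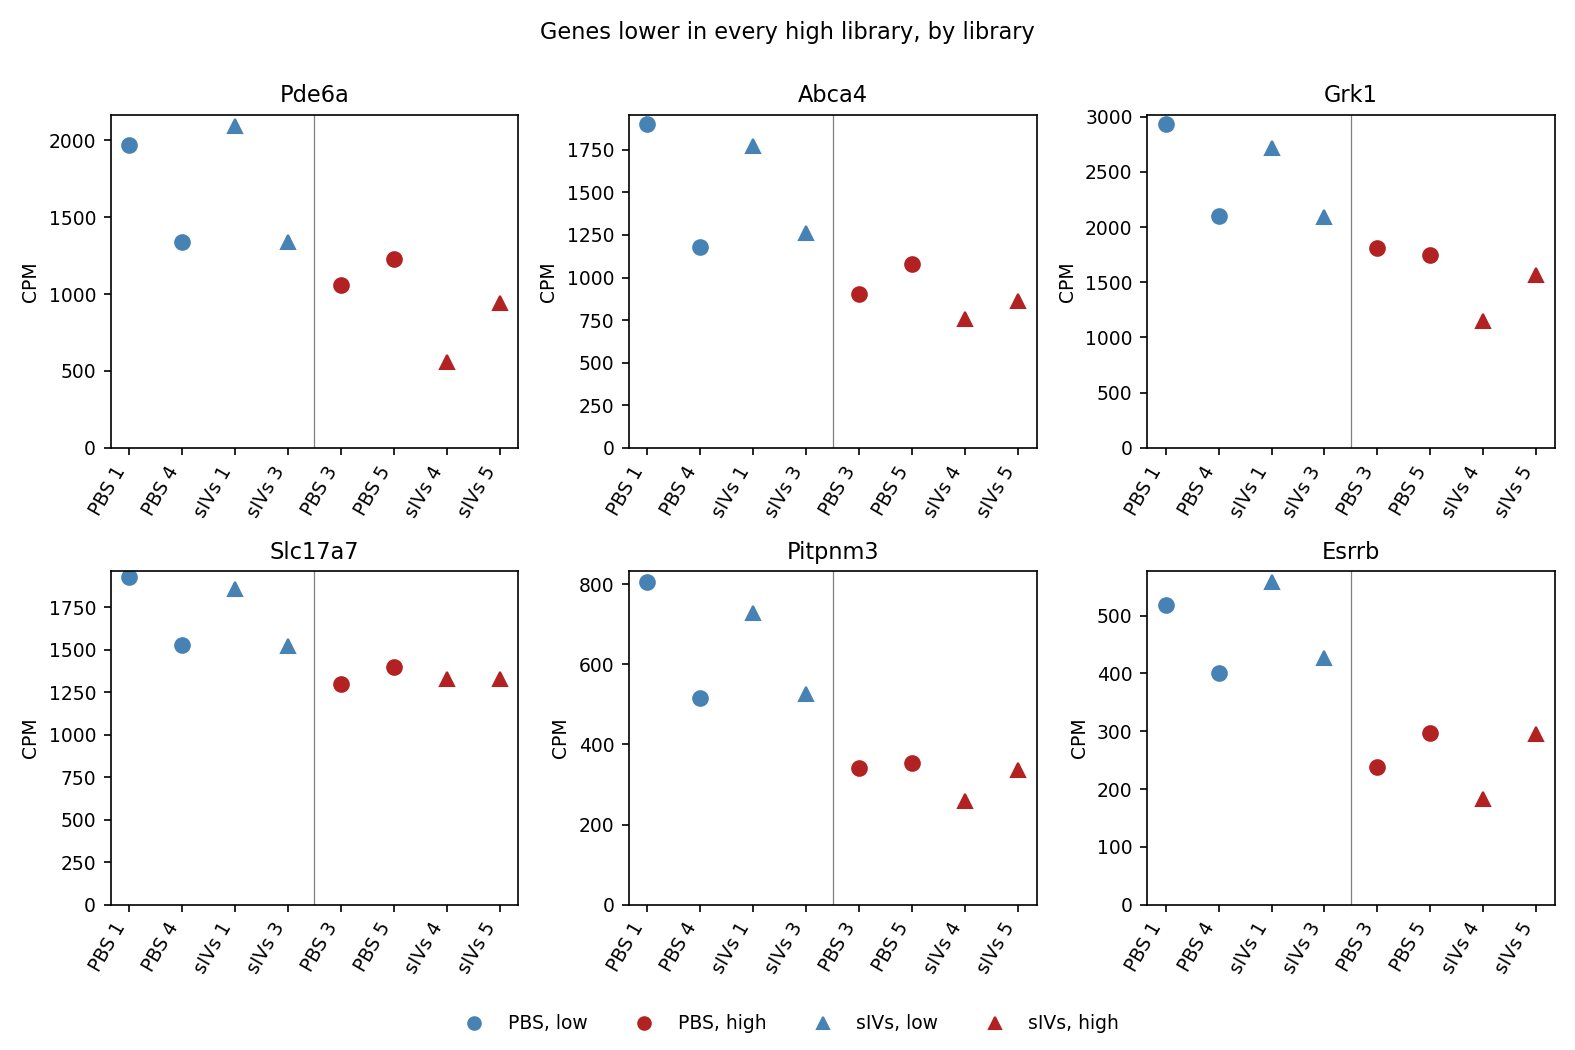
Level of 6 genes that are lower in every high library, in CPM with axes from 0, low libraries left of the line and high libraries right. PBS 1 and sIVs 1 are highest in each panel and the high libraries lie lowest, as for Pitpnm3 with 258 to 353 CPM against 516 to 805 CPM.

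The factor CRX drives photoreceptor genes through the motif TAATCC, which occurred on either strand in 7.16% of all promoters and 5.92% of those of tested genes. Of the rod list 16 of 25 genes matched a promoter and 7 held it (43.8%). Abca4 was one, and among the lower genes outside the lists Pitpnm3 was another. Esrrb, also a lower gene outside the lists, was looked at and held no TAATCC. Among all genes lower in every high library 60 of 811 promoters held it (7.40%), and among those higher 50 of 937 (5.34%). The rod list was drawn from known photoreceptor genes, Crx among them, so the share in that list restates this in part. The motif, or its reverse complement, is in capitals.
Abca4: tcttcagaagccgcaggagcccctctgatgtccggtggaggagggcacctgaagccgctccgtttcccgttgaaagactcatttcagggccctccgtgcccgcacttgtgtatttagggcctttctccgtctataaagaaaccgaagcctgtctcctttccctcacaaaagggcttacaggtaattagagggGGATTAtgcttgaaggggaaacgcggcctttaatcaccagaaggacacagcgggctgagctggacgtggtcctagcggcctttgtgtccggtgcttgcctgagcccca
Pitpnm3: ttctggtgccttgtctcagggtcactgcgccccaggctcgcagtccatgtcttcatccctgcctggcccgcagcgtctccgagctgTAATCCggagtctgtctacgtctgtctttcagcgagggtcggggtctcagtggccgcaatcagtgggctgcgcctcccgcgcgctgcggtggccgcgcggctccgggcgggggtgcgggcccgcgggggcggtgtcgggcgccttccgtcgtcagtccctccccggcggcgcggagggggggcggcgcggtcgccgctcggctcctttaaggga
These lie at chr3:122044210-122044509, plus strand, and chr11:72135840-72136139, minus strand.

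The other neurons differed little by their list medians. Of 15 cone genes 2 were lower in every high library, Gucy2e, a photoreceptor guanylate cyclase, and Grk1, which rods share, and the median was 0.03. Of 16 bipolar cell genes 1 was lower (6.25%, against 6.58% of all tested genes), with a median of -0.03. It was Prkca, at 373, 319, 243 and 315 CPM against 409, 392, 424 and 390 CPM (-0.38 ± 0.13, and -0.27 without sIVs replicate 4). Of 18 amacrine and horizontal cell genes 3 were higher (median 0.09, and 6 were higher without sIVs replicate 4), and of 18 ganglion cell genes 2 were higher (median 0.18). Calb2, a calcium buffer of amacrine cells, had 0.43 ± 0.21 with all libraries and 0.16 without sIVs replicate 4. Of 21 synapse genes 5 were lower in every high library and none higher (median -0.19, and -0.05 without sIVs replicate 4). In this list 14 differences were negative and 7 positive. They ran from -3.13, the lowest of all tested genes, to 0.34, so the low end does not stand for the list. Cacna1f, the calcium channel of the photoreceptor ribbon synapse, was at 320, 288, 247 and 268 CPM against 464, 348, 417 and 411 CPM (-0.55 ± 0.12). Slc17a7, the vesicular glutamate transporter, was at 1300, 1400, 1330 and 1330 CPM against 1930, 1530, 1860 and 1520 CPM (-0.35 ± 0.12). The 4 high libraries of Slc17a7 lay within a band narrower than their distance to the nearest low library.

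Injury and death genes were mixed. Of 20 neuron injury genes 19 were tested and 5 were higher with none lower (median 0.38). Chac1, a glutathione-degrading target of ATF4, was at 4.52, 3.49, 3.73 and 2.54 CPM against 2.26, 1.28, 1.21 and 2.13 CPM (1.04 ± 0.30). Of 24 cell death genes 22 were tested, 6 were higher and 1 lower (median 0.43). Casp1, the inflammasome caspase, was at 2.15, 2.23, 2.09 and 1.99 CPM against 0.151, 0.740, 0.357 and 0.356 CPM (2.36 ± 0.40, and 1.96 without both replicates 1), and its substrate Gsdmd had 1.07 ± 0.28. The caspase inhibitor Xiap was lower, at 349, 386, 279 and 355 CPM against 524, 407, 548 and 418 CPM (-0.47 ± 0.15). The Xiap difference was -0.38 without sIVs replicate 4 and -0.27 without both replicates 1. This 1 lower gene made up 4.55% of those tested in the list, against 6.58% of all tested genes. Of 15 proliferation genes, all tested, 6 were higher and none lower (median 0.90). Cdk1, the mitotic kinase, was at 1.33, 1.75, 1.70 and 2.13 CPM against 0.301, 1.14, 0.214 and 0.782 CPM (1.47 ± 0.49). None of 19 immediate early genes separated the sides (median 0.17), and Egr1 had -0.19 ± 0.32.

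Medians of several stress and metabolic lists leaned on the library with short transcripts. The 22 nuclear respiratory chain genes had a median of 0.51 with all libraries, 0.15 without sIVs replicate 4, 0.04 within the PBS and 0.93 within the sIVs libraries, and 2 were higher in every high library. The 22 ribosomal protein genes had 0.51, 0.24, 0.14 and 0.89 in the same order, with 9 higher. These counts were also 2 and 9 without sIVs replicate 4. Of 14 metallothionein and iron genes 6 were higher and none lower (median 0.87, 0.52 without sIVs replicate 4 and 0.46 within the PBS libraries). Mt1, a zinc-binding metallothionein, was at 198, 187, 591 and 183 CPM against 31.7, 119, 80.9 and 132 CPM (1.61 ± 0.46, and 1.12 without sIVs replicate 4). Hmox1, heme oxygenase 1, was at 16.5, 20.3, 19.3 and 14.2 CPM against 4.22, 12.7, 4.86 and 11.4 CPM (1.08 ± 0.36, and 0.99 without that library). Of 20 antioxidant genes 8 were higher (median 0.42, 0.25 within the PBS libraries). Of 22 endoplasmic reticulum and heat shock genes 6 were higher (median 0.26, 0.13 without sIVs replicate 4). Of 15 cholesterol synthesis genes none was higher and 3 were lower. Their median was -0.15, and -0.13 without sIVs replicate 4, where 5 were lower.

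**Figure D5:**
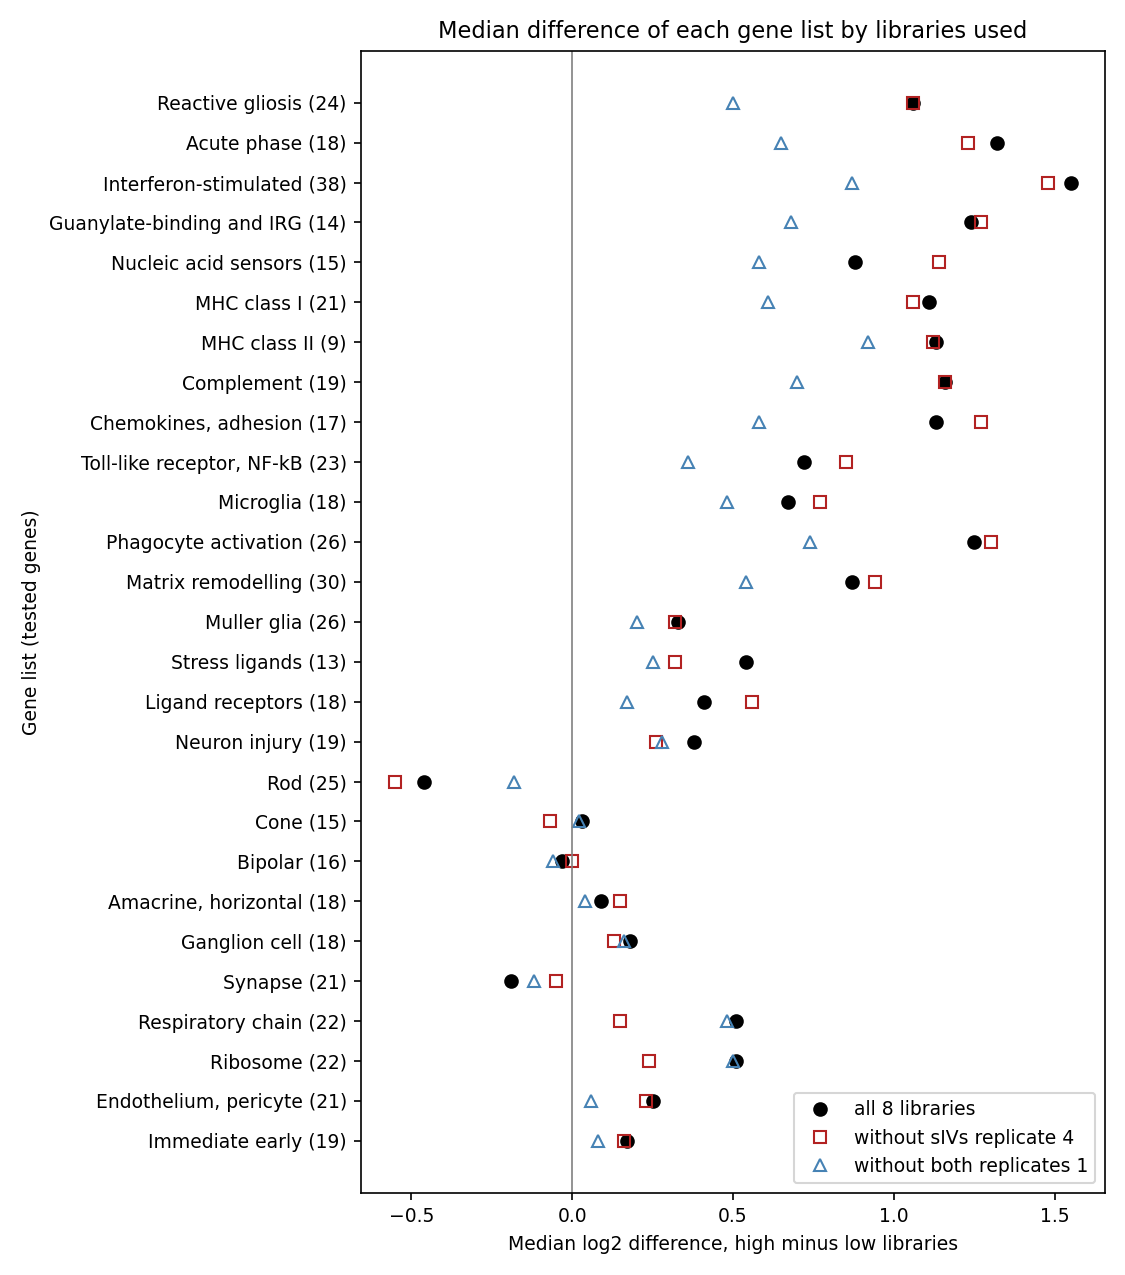
Median log2 difference, high minus low, of each gene list shown, with all 8 libraries (filled circles), without sIVs replicate 4 (squares) and without both replicates 1 (triangles). Some lists, such as pigment epithelium, are not shown. The interferon-stimulated list runs from 1.55 to 0.87 without the replicates 1, the respiratory chain list from 0.51 to 0.15 without sIVs replicate 4, and the rod list stays below 0 at -0.46, -0.55 and -0.18.

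Outside the lists, 15 protein-coding genes in each direction were taken in order of the edgeR p-value, here only a rank. The higher ones included Gstt1, Prtn3, Ptn, Tgfb1, Spi1, Wls, Pltp, Plekhf1, Cnn2, Pla2g16, Necab2, Slc15a3, Ptgds and Txndc17. Spi1, which encodes PU.1, the lineage factor of microglia and macrophages, was at 3.65, 3.07, 4.77 and 6.38 CPM against 0.452, 1.55, 1.64 and 1.71 CPM (1.73 ± 0.33). Tgfb1, transforming growth factor beta 1, was at 6.78, 8.07, 7.91 and 10.3 CPM against 2.34, 4.24, 3.36 and 4.27 CPM (1.21 ± 0.23). Spi1 and Tgfb1 kept 1.41 and 0.95 without both replicates 1. Ptgds, a prostaglandin D synthase, split the high side, at 48.0, 244, 253 and 229 CPM against 10.4, 47.2, 25.7 and 25.5 CPM (2.79 ± 0.58).

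The lower ones were Wdr31, Col4a4, Scn4a, Pitpnm3, Col4a3, Kifc1, Crb2, Zfp964, Gramd2, Cfap70, Cc2d2a, Optn, Fhod3, Esrrb and Spata1. Pitpnm3, a phosphatidylinositol transfer protein of photoreceptors, was at 342, 353, 258 and 337 CPM against 805, 516, 727 and 526 CPM (-1.0 ± 0.18). Esrrb, an orphan nuclear receptor of rods, was at 238, 297, 182 and 296 CPM against 518, 400, 558 and 426 CPM (-0.91 ± 0.19). Col4a3 and Col4a4, which encode 2 collagen IV chains, had -1.14 ± 0.20 and -1.10 ± 0.17. Crb2, an apical polarity protein at the outer limiting membrane, was at 136, 134, 113 and 143 CPM against 235, 184, 200 and 188 CPM (-0.62 ± 0.12). Wdr31 was at 38.8, 42.0, 33.4 and 35.4 CPM against 79.0, 61.6, 84.4 and 60.5 CPM (-0.94 ± 0.14).

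The vesicle label was tested with the side held fixed. No gene passed in the quasi-likelihood test of edgeR (0 of 17938, 0%; lowest adjusted p = 0.694), and 437 genes had an unadjusted p under 0.05. DESeq2 and limma-voom also called 0 genes, with 524 and 2228 at an unadjusted p under 0.05. The genes of smallest p included Angptl4, a lipase inhibitor, with a mean of 1.05 ± 0.446 CPM over the PBS libraries (SD, n = 4) and 2.56 ± 1.13 CPM over those labelled sIVs (SD, n = 4), a log2 difference of 1.3 ± 0.28 (edgeR adjusted p = 0.694). Ahead of it came Gm11399, H2-Q7, AC149090.1 and Cntnap5c, with log2 differences of -2.24, 2.76, -1.09 and -2.69 (edgeR adjusted p = 0.694 for each). The median sIVs minus PBS difference was 0.07 for reactive gliosis, -0.23 for interferon-stimulated genes, 0.15 for rod genes and 0.90 for pigment epithelium genes, the last with its highest sum in sIVs replicate 4.

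Whether the high minus low difference differed between sIVs and PBS libraries was tested by the interaction. No gene passed in edgeR (0 of 17938, 0%; lowest adjusted p = 0.485), and 1543 had an unadjusted p under 0.05. DESeq2 called 1 gene, Gm15893 (adjusted p = 0.023), at 6.61, 5.60, 0.131 and 1.03 CPM against 5.20, 3.63, 6.00 and 5.83 CPM, which is lowest in sIVs replicate 4. Limma-voom called 0 genes, with 2064 at an unadjusted p under 0.05, against 1579 in DESeq2. Without sIVs replicate 5 edgeR called 5354 genes, a fit in which sIVs replicate 4 alone stands for the high sIVs libraries and is assumed to vary like the others. Ednra, the other endothelin receptor, was among the 5 smallest p-values, at 3.25, 3.19, 2.09 and 2.13 CPM against 0.980, 1.08, 2.93 and 2.99 CPM (interaction -2.12 ± 0.45, edgeR adjusted p = 0.485). In the PBS libraries the high side lay above the low side and in the sIVs libraries below it. A p that misses the threshold does not show that the difference was equal under both labels.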

How the data were processed

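The authors deposited gene counts, and FPKM values beside them, for 8 mouse retina libraries (4 PBS, 4 sIVs). Per the labels' protocols, RNA was extracted with TRIzol, poly(A)-selected, made into stranded libraries and sequenced paired-end. The submitters' processing notes name the build mm10. No aligner, counting tool or strand setting is given in the sources used here. The deposited FPKM values were used for levels between genes and for alternatives on a log2 scale.

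The counts were fitted in R 4.3.3 with edgeR 4.0.16 (quasi-likelihood test, TMM factors, filterByExpr on the 4 side and label cells, 2 libraries each), which kept 17938 of 54532 genes. The terms were side and label, plus their product for the interaction, with Benjamini-Hochberg adjustment over all tested genes and a threshold of 0.05. DESeq2 1.42.0 and limma 3.58.1 gave alternatives. An SE is the absolute log2 difference over the square root of F. Scripts were tested on simulated data. Depth was 13803958 to 16622259 counts per library.

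The libraries of each side, the gene lists and the members were chosen with earlier results of these data known. Named genes were the 4 markers, up to 5 per list with the largest difference and no overlap at a mean of at least 1 CPM, or the 2 most abundant where fewer than 2 had none, any ligand, receptor or factor, 15 genes each way outside the lists, and 5 per test. Genes named beyond this rule were picked after their values were seen (Sox9, Glul, P2ry12, Sag, Guca1a and Gngt1, and those in the closing observations). Alternatives were DESeq2, limma-voom, other factors and filters, FPKM, length offsets, a replicate block, no label or side term, each label alone and each library left out. Length offsets on 7 libraries, and leaving out both replicates 1 or both replicates 5, were added after seeing the data. Some genes that the rule names are not reported here. Promoters came from RefSeq (GRCm38.p6).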

Additional observations from a re-analysis of the deposited data

Results flagged for a closer look

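In 3 gene lists PBS replicate 1 lay far from the other PBS libraries, as judged by its gap to the nearest of them over the range of the 4. Its list score, the mean over genes of log2(CPM + 0.5) less each gene's mean over the 8 libraries, was -2.13 for the interferon-stimulated genes, -1.60 for class I antigen presentation and -0.18 for the immediate early genes. Chance marks about 5% of groups in this way, and 92 groups were checked.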

How the results depend on the processing

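The number of genes with an adjusted p under 0.05 between the sides, 0 in edgeR and used only as description, was 514 with DESeq2, 2142 with limma-voom, 562 with no filter on low counts and 0 to 4 with 1 library left out, the 4 without PBS replicate 4. The interaction, 0 in edgeR, gave 1 with DESeq2, 624 with no filter, 21 on log2(FPKM + 1) over all genes with a count, 0 to 5354 with 1 library left out and 3104 without both replicates 5. The cause of these differences was not tested. The label given the side gave 0 genes in every alternative run. With the replicate block the counts were 32 for the sides, 0 for the label and 34 for the interaction. Deviations of same-numbered libraries correlated at 0.63, 0.04, 0.27 and 0.60 for numbers 1, 3, 4 and 5, and the labels do not say that a number marks a shared source. With almost no correlation for number 3, the numbers were not taken as pairs.

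Genes higher in every high library numbered 1377 to 2093 with 1 library left out, 2080 without both replicates 5 and 1967 with length offsets on 7 libraries, and genes lower in every high library 1306 to 2021 and 2070. Fewer libraries have to be separated in these. Of list medians 690 values stayed within their spread, 47 moved and 1 reversed: the ciliary body, iris and cornea list went from 0.82 to -0.06 without both replicates 5. Of values for named genes 2536 stayed within 1 SE and 264 moved. None with no overlap between the sides changed sign, which their selection largely fixes, while some that overlapped did, such as Hba-a1 from 0.33 to -0.24 without sIVs replicate 4. Depth limits the genes under 1 CPM, where a library holds few counts.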

Other observations

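After a look over all tested genes, 20 genes at a mean of at least 1 CPM were at least 4-fold higher in both PBS replicate 5 and sIVs replicate 5 than in every other library. Gpx3, a secreted glutathione peroxidase, was at 145 and 149 CPM there and at 4.67 to 23.8 CPM in the other 6 libraries. Penk, the enkephalin precursor, was at 112 and 109 CPM against 6.33 to 23.1 CPM. Gja1, the gap junction protein connexin 43, was at 52.3 and 42.6 CPM against 3.01 to 9.22 CPM, and Optc, opticin, at 31.7 and 24.5 CPM against 1.21 to 3.5 CPM. Both libraries are on the high side, and the part of these genes in the matrix differences was not tested.

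Rph3a, a synaptic vesicle protein gene picked after its values were seen, had levels that followed side and label only in part. Its 3 highest levels were on the low side, but sIVs replicate 3 of that side lay among the lowest. Rph3a was at 208 and 199 CPM in PBS replicates 1 and 4 and at 203 CPM in sIVs replicate 1. It was at 118 CPM in PBS replicate 3 and at 7.16 CPM in PBS replicate 5. In sIVs replicates 3, 4 and 5 it was at 4.62, 2.75 and 3.98 CPM. Its neighbour Oas1c was at 0.603, 2.76 and 1.21 CPM in the first 3 of these libraries, at 32.1 CPM in PBS replicate 3 and at 53.0, 55.9, 85.9 and 61.6 CPM in the last 4.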
